A study of Bos taurus with 14 samples.

Results

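The genes described here build, fold and export secreted proteins in the endoplasmic reticulum (ER), and sense when that work falls behind. The list names 53 genes, chosen by function, and a gene was measured where at least 1 probe set on the array carried its symbol and no other. That held for 44 genes with 67 probe sets, of 9155 genes and 24016 tested probe sets in all. By role, 14 of 15 folding genes were measured, 5 of 7 of the signal recognition particle and its receptor, 12 of 12 of the translocon and signal peptidase, 7 of 9 of the COPII coat with SEC22B, 3 of 6 of the stress response and 3 of 4 of ER-associated degradation. The 9 genes without a probe set under their symbol were PDIA6, SRP54, SRPRB, SEC23B, SEC24D, XBP1, ATF6, ERN1 and EDEM1. ERN1 (IRE1), its target XBP1 and ATF6 are therefore not described, and the stress response is represented by the kinase EIF2AK3 (PERK), ATF4 and DDIT3 (CHOP) alone.

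A secreted protein enters the ER while it is still being made: the signal recognition particle brings the ribosome to the membrane, the SEC61 channel passes the chain through, and signal peptidase cuts off the signal peptide. Chaperones such as HSPA5 (BiP) and HSP90B1 (GRP94), the lectins CALR and CANX, and disulphide isomerases then fold the chain, and COPII vesicles carry it to the Golgi. Chains that cannot be folded are sent back for degradation, and an excess of them activates the unfolded protein response through the sensors PERK, IRE1 and ATF6. Milk-secreting epithelium is among the most active secretory tissues, and this machinery carries the caseins and whey proteins.

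Biopsies of the mammary gland came from Holstein cows during the dry period, the interval between the end of milking, about 60 d before the predicted calving, and calving itself. Cows had been allotted at random to long days (LD, light for 16 h and dark for 8 h) or short days (SD, light for 8 h and dark for 16 h) throughout that period, and the comparison asks how day length acts on the gland at day -24 and at day -9 relative to calving. There were 3 LD and 3 SD arrays at day -24, and 4 LD and 4 SD arrays at day -9, which makes 14. The labels do not say whether replicates are separate cows or whether 1 cow gave both biopsies, so p-values measure the spread between these samples, which may be partly technical. Every value is a log2 signal of 1 array, a difference of 1 is a 2-fold change, and a gene with several probe sets is represented by the one with the highest mean signal. Levels are compared within a gene only.

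The tissue carried its labelled character in all groups: the casein gene CSN2 averaged between 12.71 and 12.88, and KRT18, a luminal keratin, between 8.42 and 8.56. A biopsy mixes secretory epithelium with stroma, fat and immune cells, and fewer cells of a type cannot be told apart from less RNA per cell. Some arrays stood apart. SD day -24 replicate 3 and LD day -9 replicate 4 share a block of 280 unusually low probe sets, at least 0.7 below every other array. The block holds 2 of the 67 member probe sets (both of CANX, neither the one used here). Probe sets used here can still be low in both arrays by a smaller gap, as that of the COPII gene SEC23A was. SD day -24 replicate 3 and LD day -9 replicate 4 are called the 2 low arrays. SD day -9 replicate 1 and LD day -24 replicate 1 lay farthest out on principal components 3 and 1. The difference between 3-prime and 5-prime control probe sets is a sign of RNA breakdown. Its mean over the bovine controls other than actin was 1.26 and 1.33 in SD day -24 replicates 2 and 3. Every other array was lower (0.80 to 1.21). Actin, left out of that mean, did not single out these 2 arrays: it was at 0.22 and 0.43, and highest in LD day -9 replicate 3, at 1.02. Several results that rest on the arrays that stood apart are given with and without them.

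No member passed an adjusted p of 0.05 (limma, Benjamini-Hochberg over all probe sets) in any of the 7 comparisons, and neither did any other probe set: 0% were called. What follows describes levels, differences and their errors.

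Averaged over both days, 41 of the 44 genes had a lower mean in SD than in LD, whereas 47.8% of all probe sets and 49.9% of all genes did. The median log2 difference of the 44 genes was -0.07, against 0.00 over all genes. The differences were small, and for 42 of the genes the unadjusted p was above 0.05. The 44 genes are not 44 independent observations. Within groups, the deviations of 66.8% of their pairs were positively correlated. Their mean level varied between arrays of a group with a standard deviation of 0.09. They are also a set of high signal: 41 of the 44 lay above the median probe set, against 6241 of all 9155 genes. Folding genes lay lowest, with 13 of 14 below 0 and a median of -0.14. All 12 translocon genes were below 0 with a median of -0.07, all 7 COPII genes with a median of -0.05, and all 3 degradation genes with a median of -0.05. The signal recognition particle had 4 of 5 below 0 and a median of -0.02, and the stress response 2 of 3 and -0.04. The 3 genes above 0 were ERO1A at 0.18, DDIT3 at 0.10 and SRP72 at 0.06. SRP72 had a second probe set, whose mean was lower in SD at both days.

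**Figure D1:**
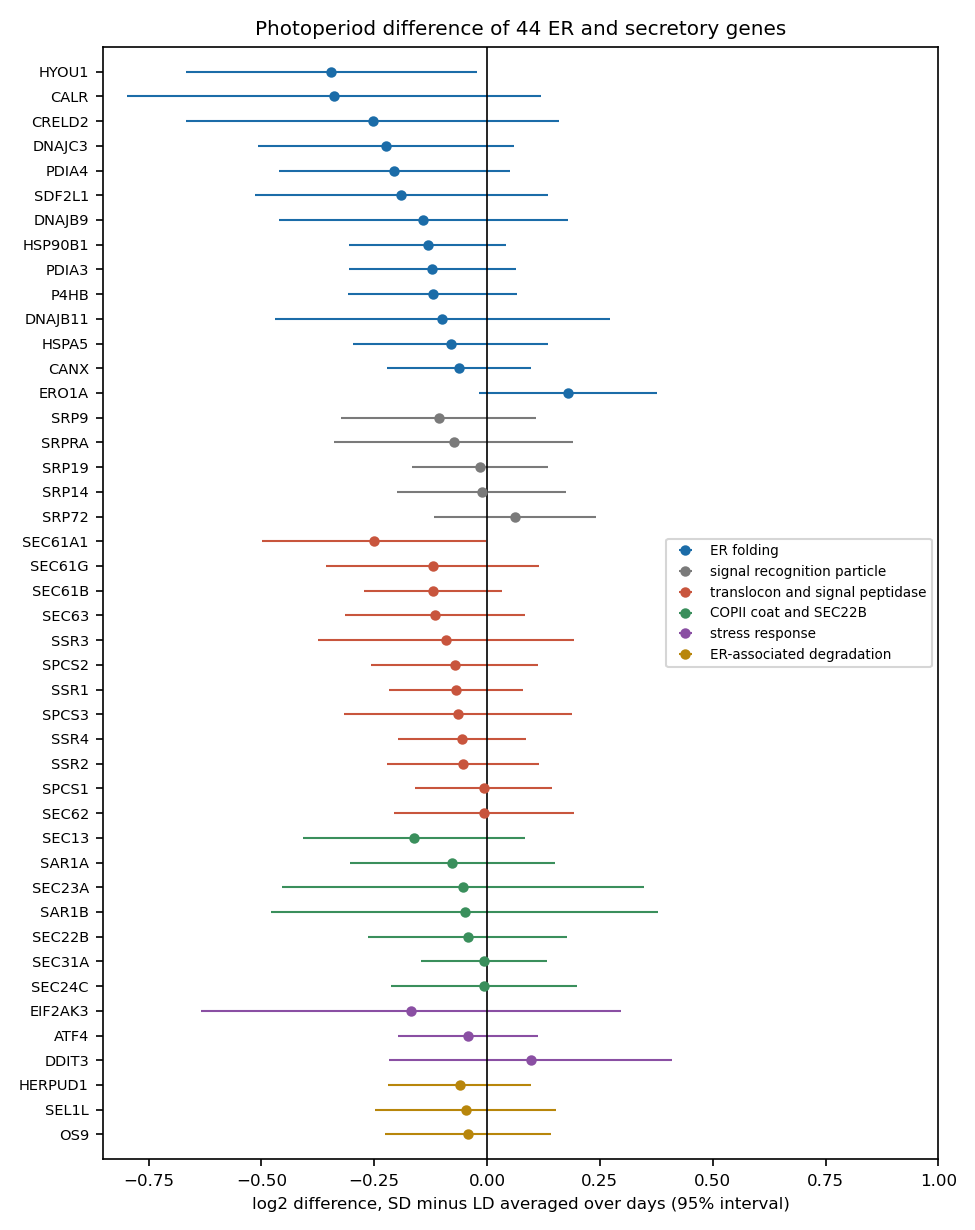
Log2 difference between SD and LD averaged over days for each of the 44 genes (points) with its 95% interval (lines), coloured by role and ordered within a role. All but 3 points lie left of 0, and only the intervals of HYOU1 and SEC61A1 end below 0.

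The count depended on single arrays. Leaving out 1 array at a time gave between 34 and 41 genes below 0, with 34 when SD day -24 replicate 3 was left out, and leaving out both low arrays also gave 34, with a median of -0.06. Without SD day -9 replicate 1 and LD day -24 replicate 1 together it was 37. With the mean 3-prime to 5-prime difference as a covariate it was 37, and with the mean of 9 luminal epithelial markers as a covariate 36 with a median of -0.05. The folding genes had at least 12 of 14 below 0 in each leave-one-out fit, and their median stayed between -0.17 and -0.11. The translocon genes had 9 of 12 without SD day -24 replicate 3, and the COPII genes 4 of 7 without SD day -24 replicate 2 or without LD day -9 replicate 3.

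The mean level of a role per array shows how this came about. The folding genes, each centred on its own mean over the arrays, lay at 0.02, 0.18 and 0.11 in LD and at 0.07, -0.28 and -0.08 in SD at day -24. At day -9 they lay at 0.03, -0.12, 0.15 and 0.15 in LD and at -0.11, -0.04, -0.06 and -0.01 in SD. The photoperiods overlapped at both days: SD day -24 replicate 1 reached the LD arrays, and LD day -9 replicate 2 lay below all SD arrays of that day. In the stress response, group means differed by day more than by photoperiod. They were -0.10 (LD) and -0.17 (SD) at day -24, and 0.10 in both at day -9. The arrays of the 2 days overlapped, as LD day -24 replicate 2 at 0.06 lay above LD day -9 replicate 1 at 0.04. This mean covers only 3 genes, and 1 of them, ATF4, differed by -0.01 between days when averaged over photoperiods.

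**Figure D2:**
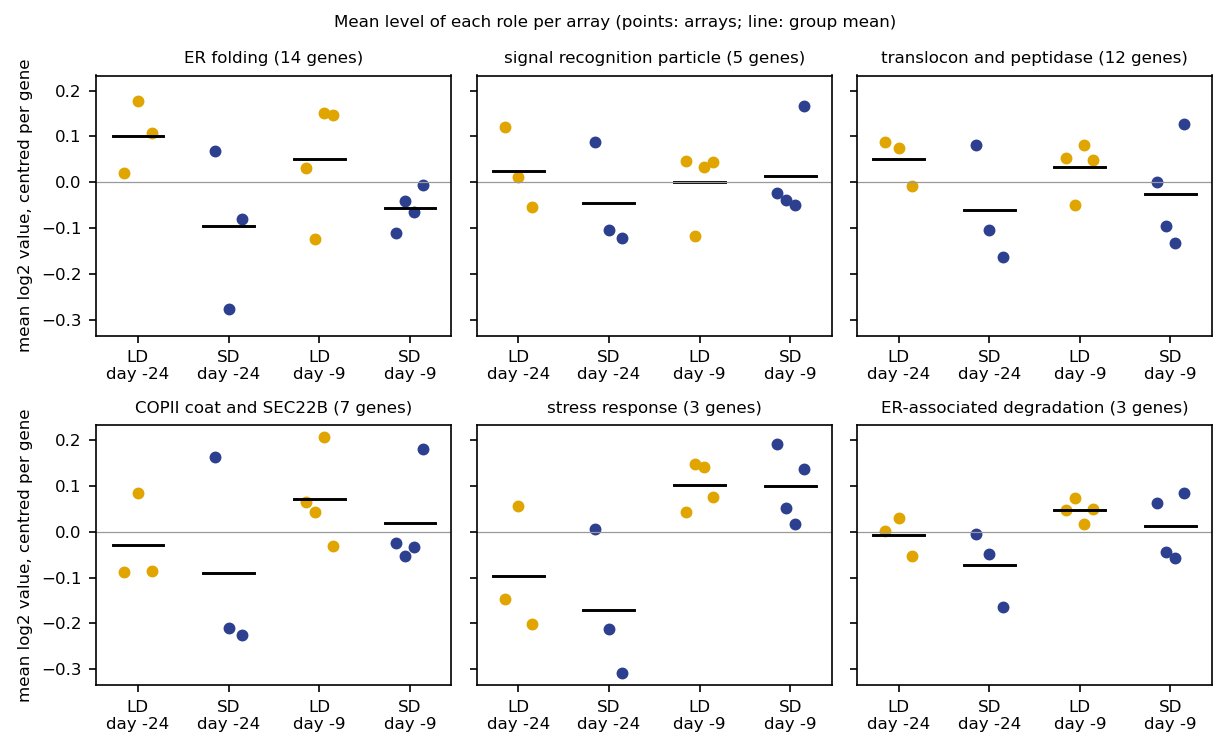
Mean log2 value per array of the genes of each role, each gene centred on its mean over 14 arrays (points; yellow LD, blue SD) with group means (lines). The folding genes are lower in SD at both days with overlapping arrays, and SD day -24 replicate 1 and SD day -9 replicate 4 lie at the top of their group in most panels.

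Among the folding genes, HYOU1 (GRP170), a large chaperone that also helps HSPA5 exchange its nucleotide, had the most negative averaged difference. It was at 7.85, 8.59 and 8.64 in LD and at 8.26, 7.83 and 7.65 in SD at day -24. At day -9 it was at 8.18, 7.95, 8.26 and 8.45 in LD and at 7.65, 8.11, 8.08 and 8.04 in SD. LD day -24 replicate 1 and LD day -9 replicate 2 lay among the SD values, so the groups overlapped at both days. The averaged difference was -0.34 (SE 0.15, 95% interval -0.67 to -0.02, unadjusted p = 0.0382, limma, adjusted p = 1), which is 1.27-fold lower in SD. That of CALR was nearly the same, -0.340 against -0.345 for HYOU1. Without the 2 low arrays HYOU1 was at -0.24 and CALR lay lower, at -0.41. The other 4 probe sets of HYOU1 gave between -0.26 and -0.07, all of the same sign. Their mean signals were 8.09, 5.17, 4.72 and 3.05, against 8.11 for the probe set used here, so most of them had a low signal.

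CALR (calreticulin), the soluble lectin that holds new glycoproteins and stores calcium, was lower in SD at day -24. It was at 9.84, 10.49 and 9.91 in LD and at 9.67, 9.09 and 9.05 in SD at that day. Every SD array was below every LD array there, which 3.02% of all probe sets also showed in that direction. At day -9 the LD arrays were at 9.97, 9.62, 10.37 and 8.97 and the SD arrays at 9.70, 9.54, 9.92 and 10.30, with full overlap and the lowest value of all arrays in LD replicate 4. The difference was -0.81 at day -24 (SE 0.32, 95% interval -1.51 to -0.12, unadjusted p = 0.025, limma, adjusted p = 1), or 1.76-fold lower in SD, and 0.13 (SE 0.28) at day -9. The differences at the 2 days differed by 0.95 (SE 0.43, unadjusted p = 0.0442, limma, adjusted p = 0.9). Without the 2 low arrays, 1 of which is LD replicate 4 of day -9, the day -24 difference was -0.70, the day -9 difference turned from 0.13 to -0.12 and the interaction was 0.58.

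HSPA5, the chaperone most used as a readout of ER load, had 3 probe sets whose differences were unlike at single days. With the probe set used here it was at 11.25, 11.50 and 11.38 in LD and at 11.36, 11.12 and 11.33 in SD at day -24, and at 11.17, 10.97, 11.38 and 11.44 in LD and at 10.92, 11.33, 11.19 and 11.28 in SD at day -9. The averaged difference was -0.08 (95% interval -0.30 to 0.14), and the arrays of both photoperiods overlapped at both days. Its other 2 probe sets gave -0.08 and -0.13. At day -24 they gave -0.41 and -0.32, where the probe set used here gave -0.10. They went above 0 at day -9, to 0.26 and 0.06, where it gave -0.06. Without the 2 low arrays the probe set used here gave -0.13 at day -24 and 0.01 at day -9.

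HSP90B1, the ER member of the HSP90 family, was at 11.27, 11.48 and 11.57 in LD and at 11.42, 11.25 and 11.06 in SD at day -24. The arrays of day -9 were at 11.32, 11.33, 11.43 and 11.28 in LD and at 11.16, 11.33, 11.32 and 11.25 in SD. SD lay lower on average at both days with overlapping arrays, by -0.13 when averaged (95% interval -0.31 to 0.04).

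PDIA4 (ERp72), a disulphide isomerase, was at 11.84, 12.17 and 12.16 in LD and at 11.71, 11.65 and 12.15 in SD at day -24. For day -9 the values were 12.02, 11.80, 11.99 and 12.32 in LD and 11.55, 12.03, 11.92 and 11.87 in SD. One SD array at day -24, replicate 3, reached the LD level, and the averaged difference was -0.21 (95% interval -0.46 to 0.05). Its other 2 probe sets gave larger averaged differences, -0.50 and -0.34. With all arrays these came from day -24 (-0.89 and -0.71) far more than from day -9 (-0.10 and 0.03). In both probe sets the 2 low arrays were the lowest of their groups. LD day -9 replicate 4 was at 6.90 and 6.10, where the other LD arrays of that day lay at 7.77 to 8.27 and at 6.61 to 7.04. SD day -24 replicate 3 was at 6.43 and 5.77. The contrast between days thus rests in part on the 2 low arrays.

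P4HB (PDI), the archetypal disulphide isomerase, had its larger photoperiod difference at day -9. At day -24 it was at 11.16, 11.44 and 11.29 in LD and at 11.32, 11.07 and 11.43 in SD. At day -9 it was at 11.37, 11.30, 11.46 and 11.60 in LD and at 11.26, 11.22, 11.09 and 11.29 in SD. All SD arrays lay below all LD arrays at day -9, though narrowly, a separation that 1.12% of all probe sets showed. The difference there was -0.22 (SE 0.11, unadjusted p = 0.077, limma, adjusted p = 0.984), and -0.02 at day -24. Whether the 2 days differed for P4HB was tested by the interaction, -0.19 (95% interval -0.57 to 0.18), which includes 0. Without the 2 low arrays the days were more alike. The difference was then -0.16 at day -9 and -0.10 at day -24, and the interaction was -0.06.

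DNAJC3 (p58IPK), a co-chaperone of HSPA5 that also restrains PERK, was at 8.83, 8.98 and 9.0015 in LD and at 8.98, 8.53 and 8.89 in SD at day -24. At day -9 the LD arrays were at 9.33, 9.07, 9.17 and 9.65 and the SD arrays at 9.45, 8.72, 8.84 and 8.96. SD replicate 1 was high among the SD arrays at day -9 and the other 3 lay below all LD arrays. The difference at day -9 was -0.31 (SE 0.17, unadjusted p = 0.0918, limma, adjusted p = 0.984), -0.46 without SD day -9 replicate 1 and -0.20 without the 2 low arrays.

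ERO1A, the oxidase that recharges the disulphide isomerases, was the 1 folding gene with a higher mean in SD at both days. It was at 6.15, 6.26 and 6.23 in LD and at 6.59, 6.37 and 6.21 in SD at day -24. The arrays of day -9 were at 6.29, 6.23, 6.40 and 5.99 in LD and at 6.60, 6.40, 6.26 and 6.38 in SD. At both days the photoperiods overlapped, and the averaged difference was 0.18 (95% interval -0.02 to 0.38, unadjusted p = 0.0726, limma, adjusted p = 1). It stayed between 0.13 and 0.22 under the alternatives run, and the second probe set gave 0.17. That probe set had a low mean signal of 4.655. Its means were 4.69 in SD and 4.67 in LD at day -24, and 4.79 and 4.48 at day -9, so its difference came almost only from day -9.

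The remaining folding genes all lay below 0 on average. CRELD2 and SDF2L1, ER residents known as targets of the unfolded protein response, differed by -0.25 and -0.19. The HSPA5 co-chaperones DNAJB9 and DNAJB11 differed by -0.14 and -0.10, the isomerase PDIA3 by -0.12, and CANX, the membrane-bound partner of CALR, by -0.06. Each of these 6 intervals includes 0.

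**Figure D3:**
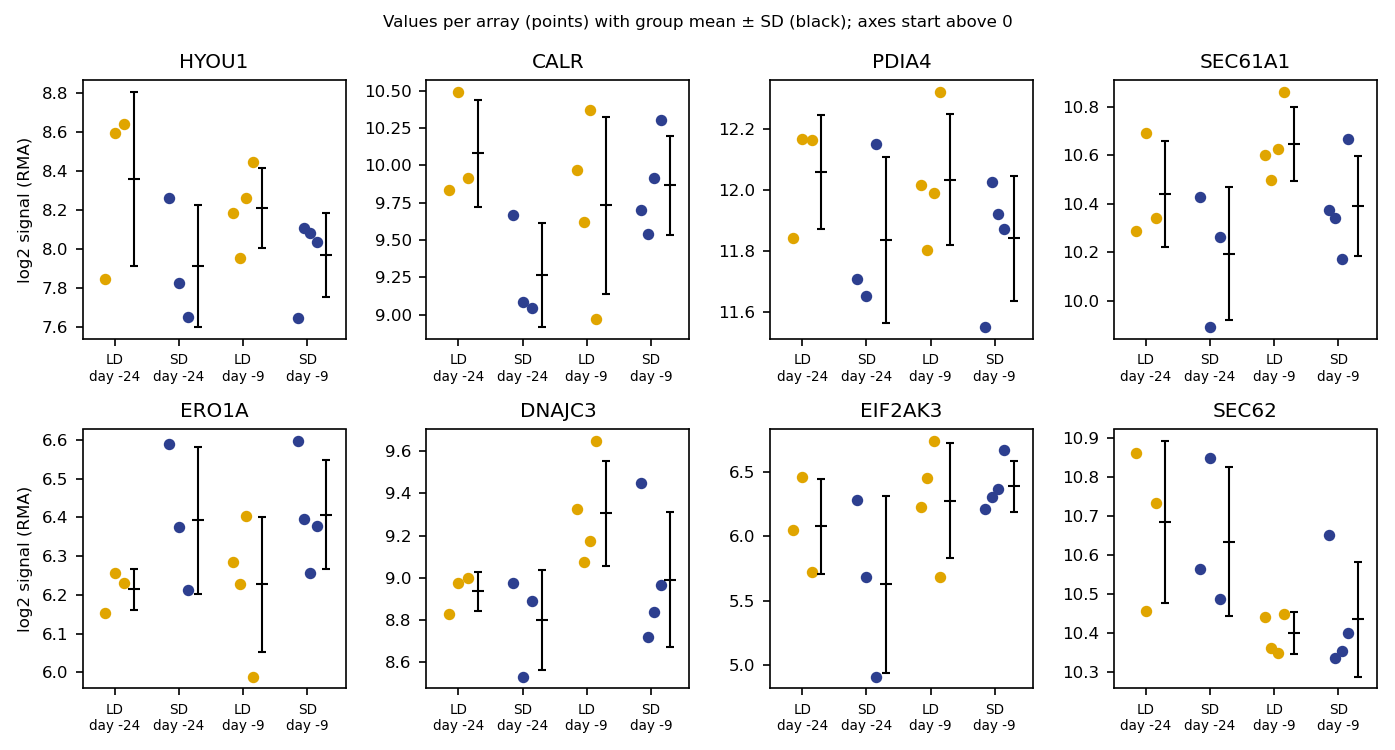
Log2 signal of 8 genes in each array (points; yellow LD, blue SD), with the group mean and standard deviation in black; axes start above 0. CALR in SD at day -24 lies between 9.05 and 9.67, below the LD arrays of that day, while the photoperiods overlap for HYOU1, PDIA4, SEC61A1 and ERO1A at both days.

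In the translocon, SEC61A1, the pore subunit of the channel, had the most negative averaged difference. It was at 10.29, 10.69 and 10.34 in LD and at 10.43, 9.89 and 10.26 in SD at day -24. For day -9 the values were 10.60, 10.50, 10.63 and 10.86 in LD and 10.37, 10.34, 10.17 and 10.67 in SD. The difference had nearly the same size at both days, -0.25 and -0.26, with 1 SD array among the LD arrays at each. Averaged, it was -0.25 (SE 0.12, unadjusted p = 0.0479, limma, adjusted p = 1), or 1.19-fold lower in SD. Unadjusted p-values under 0.05 in this direction were reached by 2 of 44 members, HYOU1 and SEC61A1, and by 0.912% of all probe sets. No member reached one upward, where 1.03% of all probe sets did, and for none did all SD arrays, days pooled, lie on one side of all LD arrays, as they did downward for 0.0208% of all probe sets and upward for 0.0291%. SEC61A1 was at -0.18 without SD day -24 replicate 2 and at -0.23 without the 2 low arrays.

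The other channel subunits, SEC61B and SEC61G, and the HSPA5 partner SEC63 each differed by -0.12, with intervals that include 0. The 4 subunits of the TRAP complex, which helps chains enter the channel, differed by -0.07 (SSR1), -0.05 (SSR2), -0.09 (SSR3) and -0.06 (SSR4). SSR4 was the second of the 2 members, beside P4HB, whose photoperiods did not overlap at day -9, which was noticed after its values were seen. It was then at 12.20, 12.17, 12.22 and 12.29 in LD and at 12.08, 12.14, 12.09 and 12.16 in SD. SD was lower by a log2 difference of -0.11 there (unadjusted p = 0.236, limma, adjusted p = 0.984).

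SPCS2, a subunit of signal peptidase, was at 11.22, 11.30 and 11.28 in LD and at 11.26, 11.06 and 10.91 in SD at day -24, and at 11.11, 11.20, 11.31 and 11.00 in LD and at 11.06, 11.10, 11.26 and 11.37 in SD at day -9. SD replicates 2 and 3 were low at day -24, and the groups overlapped at both days. Its differences were -0.19 and 0.05, and the interaction was 0.24. Without the 2 low arrays they were -0.11 and -0.01, and the interaction was 0.10. The subunits SPCS1 and SPCS3 differed by -0.01 and -0.06 when averaged.

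Of the signal recognition particle, SRP9, which binds the RNA of the particle together with SRP14, was at 10.29, 10.01 and 10.03 in LD and at 10.03, 9.95 and 9.53 in SD at day -24, and at 9.80, 9.72, 9.86 and 9.51 in LD and at 9.66, 9.77, 9.79 and 9.94 in SD at day -9. The lowest SD value at day -24 and the lowest LD value at day -9 came from the 2 low arrays. The photoperiod difference at day -24 was -0.28 (SE 0.15), and -0.13 without those arrays. Its difference between days was -0.39 in LD and -0.04 in SD, and the interaction was 0.35. Without those arrays these were -0.32, -0.20 and 0.12. SRP14, SRP19 and SRP72 and the receptor subunit SRPRA differed by -0.01, -0.02, 0.06 and -0.07 when averaged over days.

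In the COPII coat, SEC13, part of the outer cage, was at 9.92, 10.35 and 10.14 in LD and at 10.13, 9.81 and 10.29 in SD at day -24. At day -9 it was at 10.33, 10.40, 10.46 and 10.68 in LD and at 9.90, 10.39, 10.16 and 10.36 in SD. At day -9, 3 of the 4 SD arrays lay between 10.16 and 10.39, close to the LD arrays or below them, and SD replicate 1 was lowest. The difference there was -0.26 (SE 0.15, unadjusted p = 0.1, limma, adjusted p = 0.984), -0.16 with array weights, and -0.06 at day -24.

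SAR1A, the GTPase that starts coat assembly, was at 8.37, 8.48 and 8.34 in LD and at 8.66, 8.04 and 8.03 in SD at day -24, and at 8.38, 8.50, 8.63 and 8.47 in LD and at 8.50, 8.43, 8.39 and 8.66 in SD at day -9. The SD arrays of day -24 lay on both sides of the LD arrays, and the averaged difference was -0.08 (SE 0.11). The cargo-binding and cage subunits SEC23A, SEC24C and SEC31A, the second GTPase SAR1B and the vesicle fusion protein SEC22B differed by between -0.05 and -0.01 when averaged. SEC23A was at 7.28 and 7.58 in the 2 low arrays and at 8.17 or above in all others. Without the 2 low arrays its difference went from -0.21 to 0.06 at day -24 and from 0.10 to -0.17 at day -9. That of SAR1B went from -0.07 to 0.22 at day -24 and from -0.03 to -0.16 at day -9.

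The stress response genes showed no common direction between photoperiods. EIF2AK3 (PERK), the sensor kinase, was at 6.05, 6.46 and 5.72 in LD and at 6.28, 5.68 and 4.91 in SD at day -24. At day -9 the LD arrays were at 6.23, 6.45, 6.74 and 5.68 and the SD arrays at 6.21, 6.30, 6.37 and 6.67. The lowest SD value at day -24 and the lowest LD value at day -9 again came from the 2 low arrays. The averaged difference was -0.17 (95% interval -0.63 to 0.30) and turned to 0.010 without SD day -24 replicate 3.

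ATF4, the transcription factor translated when PERK is active, was at 11.16, 11.24 and 11.15 in LD and at 11.29, 11.07 and 11.17 in SD at day -24. The arrays of day -9 were at 11.16, 11.15, 11.18 and 11.33 in LD and at 11.08, 11.13, 11.03 and 11.26 in SD. Its arrays lay close together in all groups, and the averaged difference was -0.04 (95% interval -0.20 to 0.11). ATF4 is regulated mainly through its translation, which an array does not measure.

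DDIT3 (CHOP), a target of ATF4, was at 8.16, 8.28 and 8.34 in LD and at 8.26, 8.42 and 8.81 in SD at day -24. For day -9 the values were 8.55, 8.66, 8.31 and 9.02 in LD and 9.09, 8.53, 8.46 and 8.29 in SD. The highest values came from 1 array in each of 3 groups (replicate 3 of SD at day -24, replicate 4 of LD and replicate 1 of SD at day -9), and the photoperiods overlapped at both days. The averaged difference was 0.10 (95% interval -0.22 to 0.41).

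The degradation genes also differed little. HERPUD1, which organises the retrotranslocation complex, lay between 10.70 and 10.97 on the 6 arrays of day -24 and between 10.88 and 11.13 on the 8 arrays of day -9. Its averaged difference was -0.06 (95% interval -0.22 to 0.10). SEL1L, the adaptor of the ubiquitin ligase HRD1, was at 10.41, 10.26 and 10.28 in LD and at 10.31, 10.30 and 9.85 in SD at day -24, and at 10.16, 10.07, 10.21 and 9.99 in LD and at 10.37, 10.11, 10.05 and 10.19 in SD at day -9. SD day -24 replicate 3 was the lowest, and the averaged difference was -0.05 (95% interval -0.25 to 0.15). Without the 2 low arrays the averaged difference turned to 0.01, and that at day -24 went from -0.16 to -0.01.

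The photoperiods compared at day -24 and at day -9 share no array. Of the 44 genes, 26 were lower in SD at both days, 10 at day -24 alone, 6 at day -9 alone, and 2 (ERO1A and SRP72) were higher at both. The second probe set of SRP72 went the other way at both days. Its means were 9.35 in SD and 9.40 in LD at day -24, and 9.23 and 9.29 at day -9. Over all genes, 18.4% were lower at both days. By role, 12 of 14 folding genes were lower at both days, 7 of 12 translocon genes, 4 of 7 COPII genes and 1 each of the other 3 roles.

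At day -24, 36 of 44 genes were lower in SD with a median of -0.10, where 47.3% of all probe sets and 40.1% of all genes were lower and the median over all genes was 0.04. The count was 32 without the 2 low arrays, 28 without SD day -24 replicate 2, 30 with the 3-prime to 5-prime difference as a covariate and 42 with arrays centred on their median gene. SD day -24 replicates 2 and 3 are the arrays with the largest mean 3-prime to 5-prime difference (actin left out). The part of RNA quality in the result was not tested beyond that covariate. All 7 milk protein genes were lower in SD at that day as well, with a median of -0.06. Their mean, centred per gene, ranged from -0.33 to 0.32 in LD and from -0.42 to 0.10 in SD, and its part in the result was not tested. Of 9 luminal markers 6 were higher in SD, with a median of 0.08. CALR was the 1 member with an unadjusted p under 0.05 in this direction, where 1.23% of all probe sets had one. No member had one upward (1.18% of all probe sets), and none had SD arrays that were all above the LD arrays (2.64%).

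At day -9, 32 of 44 genes were lower in SD with a median of -0.05, where 49.8% of all probe sets and 60.3% of all genes were lower and the median over all genes was -0.04. The members' median was thus close to that of all genes, and with arrays centred on their median gene the direction turned, to 19 of 44 genes below 0 and a median of 0.02. Without the 2 low arrays 35 were below 0, and with the luminal marker mean as a covariate 22. No member had an unadjusted p under 0.05 in either direction at day -9, where 1.33% of all probe sets had one downward and 1.44% upward, and none had SD arrays all above the LD arrays (1.34%). Of the other lists, 1 of 7 milk protein genes, no luminal marker, 8 of 9 fibroblast markers and 7 of 8 macrophage markers were lower in SD at that day. The mean of the luminal markers, centred per gene, ranged from -0.12 to 0.04 in LD and from -0.05 to 0.36 in SD. That of the fibroblast markers ranged from -0.15 to 0.39 and from -0.25 to -0.01, and that of the macrophage markers from 0.06 to 0.68 and from -0.49 to 0.08. The part of fibroblasts and macrophages in the result was not tested.

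**Figure D4:**
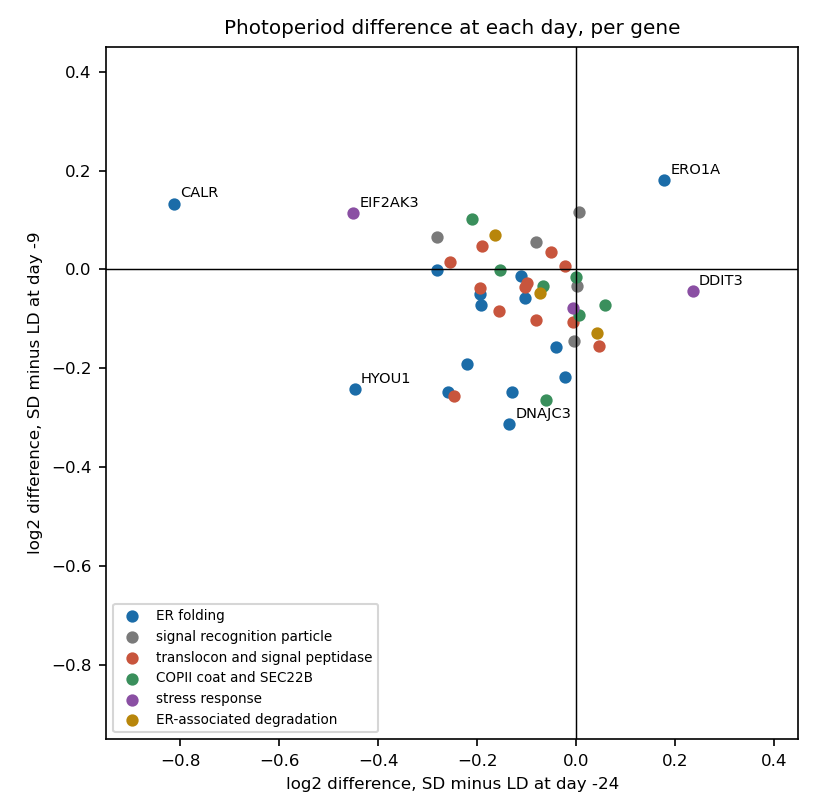
Log2 difference between SD and LD at day -24 (horizontal) and at day -9 (vertical) for each of the 44 genes, coloured by role. The lower left part holds the 26 genes lower in SD at both days, CALR and EIF2AK3 lie far left with values above 0 at day -9 (below 0 without the 2 low arrays, at -0.12 and -0.08), and ERO1A lies in the upper right.

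Between day -24 and day -9 the machinery as a whole differed little. Averaged over photoperiods, 22 of 44 genes were below 0 at day -9 relative to day -24, where 49.8% of all probe sets and 46.2% of all genes were, and the median was 0.00 against 0.02 over all genes. The count ranged from 13 without SD day -24 replicate 1 to 26 without SD day -24 replicate 2, and was 29 with arrays centred on their median gene. Of the 7 milk protein genes, 2 were below 0 in this average with a median of 0.03, against 4 of 7 with -0.04 in LD and 0 of 7 with 0.14 in SD. Among roles, COPII genes had 2 of 7 below 0 with a median of 0.05, the stress response 1 of 3 with 0.24 and the degradation genes 1 of 3 with 0.11.

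Unadjusted p-values under 0.05 were reached downward by SEC62 and SRP9, where 4.08% of all probe sets reached one, and upward by EIF2AK3, SSR3 and OS9, where 3.64% did. For no member did all 8 arrays of day -9, photoperiods pooled, lie on one side of all 6 arrays of day -24, as they did downward for 0.229% of all probe sets and upward for 0.0583%. SEC62, a translocon partner for short chains and a receptor in ER turnover, was at 10.86, 10.46 and 10.74 in LD and at 10.56, 10.85 and 10.49 in SD at day -24. At day -9 it was at 10.44, 10.36, 10.35 and 10.45 in LD and at 10.65, 10.34, 10.35 and 10.40 in SD. Of the 8 late arrays, 7 lay below all 6 early ones, and SD replicate 1 was the exception. The averaged difference was -0.24 (SE 0.09, 95% interval -0.44 to -0.04, unadjusted p = 0.0213, limma, adjusted p = 0.636). The second probe set of SEC62 gave 0.15, of the opposite sign.

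EIF2AK3 had the largest positive difference, 0.48 (SE 0.22, unadjusted p = 0.0436, limma, adjusted p = 0.643), from values given above. It was 0.76 in SD and 0.20 in LD, and those differences were not shown to differ (interaction 0.56, 95% interval -0.37 to 1.49). Without the 2 low arrays the difference in SD was 0.41, in the average 0.40, and the interaction 0.01. With the mean of the adipocyte markers as a covariate the averaged difference was 0.21. Of those 8 markers 7 were higher at day -9 in each photoperiod, with a median of 0.20 in LD, 0.65 in SD and 0.41 averaged. ADIPOQ, LEP, LIPE and CIDEC among them had low mean signals, between 3.54 and 4.82. PPARG, CIDEA, LPL and FABP4 lay between 7.73 and 11.64. Whether the mean of these markers follows the share of fat cells was not tested.

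SSR3, the gamma subunit of TRAP, was at 9.92, 9.98 and 9.39 in LD and at 9.97, 9.58 and 9.49 in SD at day -24. At day -9 the LD arrays were at 10.15, 9.89, 10.20 and 10.01 and the SD arrays at 9.99, 9.83, 9.70 and 10.33. Early and late arrays overlapped in both photoperiods, and the averaged difference was 0.29 (SE 0.13, unadjusted p = 0.0452, limma, adjusted p = 0.643). Fitted beside the adipocyte marker mean, it was 0.12. Its second probe set gave -0.28, again of the opposite sign. Of the 14 members with several probe sets, 2 had the same sign in all of them for this comparison, against 8 for the averaged photoperiod difference, 11 for that at day -24 and 6 for that at day -9.

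OS9, a lectin that selects misfolded glycoproteins for degradation, was at 8.54, 8.74 and 8.65 in LD and at 8.60, 8.62 and 8.84 in SD at day -24. The arrays of day -9 were at 8.85, 8.89, 8.77 and 9.16 in LD and at 8.78, 8.72, 8.72 and 8.94 in SD. In LD every late array was above every early one, with a difference of 0.27 (SE 0.12, unadjusted p = 0.0408, limma, adjusted p = 0.651). In SD the arrays overlapped, with 0.10.

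Within LD, 24 of 44 genes were below 0 at day -9 with a median of -0.03, beside 49.5% of all probe sets and 40.1% of all genes, and 33 with arrays centred on their median gene. Groups did not overlap for SRP9, SEC62 and SEL1L downward, where 4.66% of all probe sets were separated, or for DNAJC3 and OS9 upward, where 4.32% were. SRP9 differed by -0.39 (SE 0.14, unadjusted p = 0.0163, limma, adjusted p = 0.651), SEC62 by -0.28, SEL1L by -0.21 and DNAJC3 by 0.37. SRP9 and SEC62 had an unadjusted p under 0.05 downward, as had 3.86% of all probe sets, and OS9 upward, as had 3.61%. Within SD, 16 of 44 genes were below 0 with a median of 0.03, beside 53.3% of all probe sets and 57.7% of all genes. With the 3-prime to 5-prime difference as a covariate the direction turned, to 31 of 44 and a median of -0.06. No member had groups that did not overlap, as 2.94% of all probe sets had downward and 2.96% upward. EIF2AK3 alone had an unadjusted p under 0.05 there (0.0263, limma, adjusted p = 0.97), in the direction where 2.63% of all probe sets had one, and no member had one downward (1.93%).

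The interaction asks whether the photoperiod difference itself differed between days. Of the 44 genes, 17 had an interaction below 0 and the median was 0.03, where 52.1% of all probe sets and 63.4% of all genes were below 0 and the median over all genes was -0.09. With arrays centred on their median gene, 7 were below 0 and the median was 0.17, and with the 3-prime to 5-prime difference as a covariate 25 were below 0 and the median was -0.02. CALR was the 1 member with an unadjusted p under 0.05 upward, as had 2.49% of all probe sets, and no member had one downward (1.66%).

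Single arrays held many of the extreme values. LD day -9 replicate 4 had the highest value of the 14 arrays for 13 of the 44 genes and the lowest for 4. SD day -24 replicate 3 had the lowest value for 13 and SD day -24 replicate 2 for 8. Over all genes, LD day -9 replicate 4 was highest for 20.8% and lowest for 9.74%. SD day -24 replicate 3 was highest for 15.6% of all genes and lowest for 7.08%, whereas among the members it was highest for 2 and lowest for 13.

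**Figure D5:**
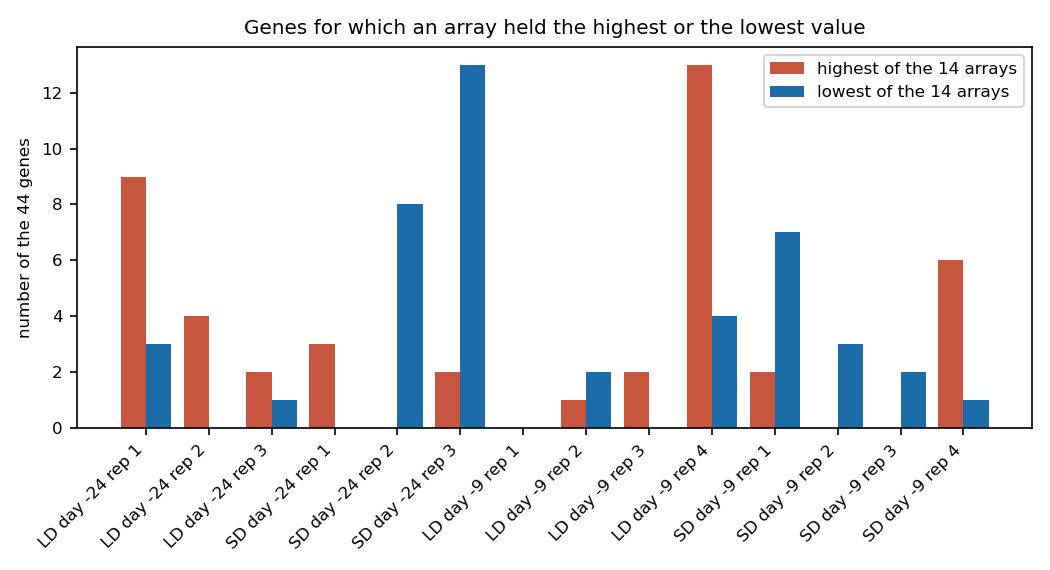
Number of the 44 genes for which an array held the highest (red) or the lowest (blue) of the 14 values. LD day -9 replicate 4 holds 13 of the highest values, and SD day -24 replicates 3 and 2 hold 13 and 8 of the lowest.

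Further genes of the same pathway, taken from lists by function, numbered 87 measured, of which none was called. When averaged over days 66 were lower in SD, with a median of -0.07. At day -24 that held for 51 of 87 with a median of -0.02, and at day -9 for 71 of 87 with -0.10. Their interaction was below 0 for 58 of 87 with a median of -0.09, where the 44 members had 17 below 0 and a median of 0.03. The subunits of oligosaccharyltransferase, which attaches sugars to new chains, had 10 of 11 below 0 with a median of -0.10. Other vesicle traffic genes had 25 of 29 with -0.07, other folding genes 15 of 20 with -0.09, other degradation genes 8 of 14 with -0.03 and other stress genes 8 of 13 with -0.03. The 3 of smallest p were UBE2J1, an ER ubiquitin-conjugating enzyme, at -0.27 (unadjusted p = 0.00701, limma, adjusted p = 1), the oligosaccharyltransferase subunit DDOST at -0.24 and the isomerase TXNDC5 at -0.25.

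UBE2J1 was at 8.95, 9.13 and 8.75 in LD and at 8.66, 8.62 and 8.67 in SD at day -24, so that all SD arrays were lower. For day -9 the values were 8.92, 8.84, 9.05 and 8.75 in LD and 8.66, 8.50, 8.66 and 8.78 in SD, where SD replicate 4 was above the lowest LD array. Between days, 21 of the 87 genes were below 0 at day -9 when averaged over photoperiods, with a median of 0.08. DNAJC10, a folding reductase, was lower at day -9 than at day -24, with means of 9.87 and 9.53 in LD and 9.81 and 9.50 in SD. Its difference was -0.33 (unadjusted p = 0.000697, limma, adjusted p = 0.636), and all 8 late arrays lay below all 6 early ones. NUPR1, a stress-induced chromatin protein, had means of 9.96 and 10.75 in LD and 9.80 and 10.69 in SD, a difference of 0.84 (unadjusted p = 0.000943, limma, adjusted p = 0.636).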

How the data were processed

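Per the submitters' processing notes, RMA (robust multi-array average) gave the values that the authors deposited for their Affymetrix bovine arrays. They are deposited as log2 signals, 1 per probe set and array; software and version are not given in the sources used here. Of 24128 probe sets, 112 controls were left out. Of the remaining 24016, the annotation names 1 gene for 13292, several for 86 and none for 10638. A gene with several probe sets is represented by the one with the highest mean signal.

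In R 4.3.3, limma 3.58.1 fitted the 4 group means over 14 arrays, with 7 contrasts, a two-sided moderated test without intensity trend, and Benjamini-Hochberg adjustment over 24016 probe sets at 0.05. The procedure was tested on simulated data. Arrays have no read depth, and their number limits the precision.

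Gene lists are described by counts and medians, without a test of the list. The members and lists were chosen with earlier results of these data known. Values per array are given for the 4 members of smallest unadjusted p in each contrast, for the member of smallest p in each role, and for a set of well-known members. Alternatives were array weights, an intensity trend, quantile normalization, a signal filter, tissue and RNA quality covariates, a replicate block, centring, and leaving out arrays. No sequences or coordinates were used here.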

Additional observations from a re-analysis of the deposited data

Results flagged for a closer look

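Over 88 groups of 4 arrays (44 genes at day -9 in each photoperiod), each group was checked for an array far from the other 3, and 2 such cases were found, where chance gives about 1 in 20 groups. HYOU1 was at 7.65 in SD day -9 replicate 1, below the other 3 arrays of that group, which lay between 8.04 and 8.11. SEC31A, a subunit of the COPII cage, was at 11.58 in SD day -9 replicate 4, above the other 3 arrays, which lay between 11.44 and 11.45. SD day -9 replicate 1 also held the lowest value of all arrays for 7 of the 44 genes.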

How the results depend on the processing

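No member followed by name passed the adjusted threshold of 0.05 under an alternative, in the contrasts for which it was selected. Calls were counted only for the alternatives planned beforehand that had a test. Single probe sets were called in 4 cases. These were 1 at day -9 with the luminal covariate (limma) and 1 for the averaged photoperiod difference without SD day -9 replicate 3. The day difference in SD had 1 both without the 2 low arrays and without SD day -24 replicate 3. With probe sets above the median signal only, 2 were called for the averaged day difference. The leave-one-out counts thus ranged from 0 to 1 in those comparisons and were 0 in the others.

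The median of the 44 genes ranged, leaving out 1 array at a time, from -0.15 to -0.04 for photoperiod at day -24, from -0.08 to -0.03 at day -9 and from -0.12 to -0.06 averaged. For the day difference it ranged from -0.05 to 0.00 in LD, from 0.00 to 0.10 in SD and from -0.03 to 0.05 averaged. Centring arrays on the median gene, an alternative chosen after seeing the data, gave -0.15 for the day difference in LD and 0.17 for the interaction, because it subtracts the shift of all genes. The RNA quality covariate, and leaving out LD day -24 replicate 1 with SD day -9 replicate 1, were also chosen after seeing the data. Of the genes given per array, EIF2AK3 turned from -0.17 to 0.010 in the averaged photoperiod difference without SD day -24 replicate 3. EIF2AK3 ranged from -0.33 to 0.010 over the fits that leave out 1 array, and the cause was not tested. Other genes turned without the 2 low arrays. Among them were SEL1L, from -0.05 to 0.01 in the averaged photoperiod difference, and at day -9 CALR, from 0.13 to -0.12, and HSPA5, from -0.06 to 0.01.

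The labels do not say that replicate numbers pair samples. Same-numbered arrays had correlated deviations between -0.313 and 0.331 over 13 pairs. With the number as a block the averaged photoperiod median was -0.07 and the day difference -0.05 in LD, 0.00 in SD and -0.03 averaged, and no call changed. Under the block, 26 of 44 genes were below 0 for the day difference in LD, 21 in SD and 25 averaged. With array weights the counts were 24, 23 and 28, and the medians -0.02, -0.01 and -0.02. These medians are small, and no direction is drawn from them.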
